A study of Mus musculus with 6 samples.

Results

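The miR-16 family, which takes in miR-15a, miR-15b, miR-195a, miR-497a and miR-322, is a group of microRNAs (miRNAs), short RNAs that bind mRNAs and lower their translation, whose members share the bases with which a miRNA first pairs with its target. Its 6 members here, mmu-miR-16-5p, mmu-miR-15a-5p, mmu-miR-15b-5p, mmu-miR-195a-5p, mmu-miR-497a-5p and mmu-miR-322-5p (written below without mmu, the prefix for mouse), were chosen by name for this shared stretch and not by their values, out of 1982 rows of the deposited count table. They were measured in exosomes, membrane vesicles shed by cells that circulate in blood, isolated from serum of 6 mice, all C57BL/6 males of 3 months. The 3 Acu/LFES mice (4, 5 and 6) had received a single hindlimb session of 30 min of acupuncture with low frequency electrical stimulation, and the 3 sham mice (1, 2 and 3) had needles placed nearby and wired to the device with the current off. Each mouse gave its own small RNA library, and the comparison asks whether the stimulation altered the miRNAs that exosomes carry. Serum exosomes come from many tissues, so a change in which tissues shed them and a change of a miRNA in each vesicle cannot be told apart. Counts are relative within a library and do not show the number of vesicles, which the paper reported as raised in serum after Acu/LFES.

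Members of this family are known as brakes on the cell cycle and on survival, acting on mRNAs of cyclins and of the anti-apoptotic protein BCL2. miR-15a and miR-16 are made from a pair of hairpins in the DLEU2 locus, which is lost in many chronic lymphocytic leukaemias, and miR-15b and a further copy of miR-16 from hairpins in an intron of SMC4, a condensin subunit. miR-195a and miR-497a are known from postnatal heart and skeletal muscle, where they accompany the exit of cells from division, and miR-322 (the mouse counterpart of miR-424) accompanies muscle differentiation. miR-16-5p is abundant in red blood cells and is widely used as a reference in serum.

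The mature sequences, taken from RefSeq on GRCm38.p6, which held all 6 members, are shown 5′ to 3′ with bases 2 to 8, the seed, in capitals, because this seed is what defines the family.
miR-16-5p: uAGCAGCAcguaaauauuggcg
miR-195a-5p: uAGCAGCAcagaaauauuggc
miR-15a-5p: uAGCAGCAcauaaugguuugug
miR-15b-5p: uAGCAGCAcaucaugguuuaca
miR-497a-5p: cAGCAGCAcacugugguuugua
miR-322-5p: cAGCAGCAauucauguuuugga
All 6 carry AGCAGCA at these bases, as did 10 of the 1679 mature mouse names in that table, or 0.596%. Counted from 1 at the 5′ end, miR-195a-5p differs from miR-16-5p by G10A and U11G and is 1 base shorter, and miR-15b-5p differs from miR-15a-5p by A12C, G20A, U21C and G22A. The sources used here do not give the aligner or how many mismatches it allowed, so reads may have been shared between such close rows. The other 4 names with this seed were hardly seen. miR-6353, whose first 12 bases are those of miR-16-5p, had 4, 1 and 0 counts with sham treatment and 4, 0 and 3 after Acu/LFES, miR-195b had 1 count in Acu/LFES mouse 4, and miR-6342 and miR-6419 had 0 in every mouse. miR-497b and miR-1907, which were listed by name as possible relatives, also had 0 counts in every mouse.

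The members come from 4 places in the genome (GENCODE M21 on GRCm38). Mir15a (chromosome 14, 61632027 to 61632110) and Mir16-1 (chromosome 14, 61631880 to 61631972) lie 54 bases apart on the minus strand within the noncoding gene Dleu2, Mir15a in an intron and Mir16-1 over an exon of at least 1 transcript. Mir15b (chromosome 3, 69009772 to 69009835) and Mir16-2 (chromosome 3, 69009902 to 69009996) lie 66 bases apart in an intron of Smc4, on the same strand. Mir497 (chromosome 11, 70234717 to 70234800) and Mir195a (chromosome 11, 70235042 to 70235135) lie 241 bases apart on the plus strand, outside any other annotated gene except Mir497b on the strand opposite Mir497. Mir322 lies on the minus strand of chromosome X from 53054255 to 53054349, outside any host gene. Mir16-1 and Mir16-2 give the same mature miR-16-5p, so its count could not be divided between these loci.

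The libraries held between 391708 and 658833 counts in sham mice and between 517421 and 1504137 in Acu/LFES mice. The miRNAs with a count numbered 453, 388 and 338 in sham mice 1, 2 and 3. They numbered 666, 489 and 533 in Acu/LFES mice 4, 5 and 6, so more in each of these than in any sham mouse. Normalized read counts (CPM) are expressed relative to library size, here the library's total multiplied by edgeR's TMM factor. This factor sets libraries level on the miRNAs that differ least, and was lowest in sham mouse 2 (0.65) and highest in Acu/LFES mouse 6 (2.12). The red cell miRNAs miR-486a-5p and miR-486b-5p had the same count in every mouse and may be the same reads listed under both names. Added together they were between 61.7% and 74.0% of the counts in mice 1 to 5 and 29.2% in mouse 6. Counted once they were between 44.6% and 58.7% in mice 1 to 5 and 17.1% in mouse 6. The floor of detection was set at 3 counts, which stood between 4.32 and 9.91 CPM with sham treatment and between 1.80 and 6.24 CPM after Acu/LFES, which covers counting error only. The groups were compared with edgeR's quasi-likelihood test over the 259 miRNAs that passed its filter on low counts, with Benjamini-Hochberg adjustment. The labels name 6 mice but no litter or day, so p measures the spread between these mice only.

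No difference in the family was detected between the groups, and its most abundant member, miR-16-5p, made up most of its counts in every mouse. 4 of the 6 members passed the filter, and 0 of these were called at an adjusted p under 0.05, against 0% of all miRNAs tested. At an unadjusted p under 0.05, 0 members were higher and 0 lower, against 5.79% and 3.09% of all miRNAs tested. DESeq2 called 0 of the members at an adjusted p under 0.05 as well, against 5.41% of the miRNAs to which it gave an adjusted p. miR-195a-5p received no adjusted p from DESeq2. 3 of the 4 tested members had a positive log2 fold change, against 52.9% of all miRNAs tested. Among them, miR-195a-5p passed the filter only with the counts of the Acu/LFES mice, so its higher mean there was partly built in. No tested member had all Acu/LFES mice on the same side of all sham mice, against 8.88% of tested miRNAs with all Acu/LFES mice above and 8.11% with all below.

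miR-16-5p had 4997, 3478 and 2290 counts in sham mice 1, 2 and 3 and 18034, 3077 and 8978 in Acu/LFES mice 4, 5 and 6, which placed it 13th by total count among the rows with a count. Normalized, it stood at 7204, 8113 and 7567 CPM with sham treatment and at 10793, 6398 and 8193 CPM after Acu/LFES. The sham mice lay close together, and the Acu/LFES mice reached both above and below them, with mouse 4 highest and mouse 5 lowest of all. The means were 7628 ± 458 CPM in sham and 8461 ± 2210 CPM after Acu/LFES (mean ± SD, n = 3 each), which is 0.15 as a log2 fold change (standard error 0.25, adjusted p = 0.904, edgeR quasi-likelihood). The 95% interval of that fold change went from -0.41 to 0.71. Without Acu/LFES mouse 4 the fold change turned to -0.06.

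miR-15a-5p, which is cut from the same transcript as 1 copy of miR-16, had 227, 233 and 110 counts with sham treatment and 1010, 169 and 583 after Acu/LFES. Its levels were 327, 544 and 363 CPM with sham treatment and 604, 351 and 532 CPM after Acu/LFES. Sham mouse 2 lay among the Acu/LFES mice and Acu/LFES mouse 5 among the sham mice, so the groups overlapped. The log2 fold change was 0.27 (standard error 0.33, adjusted p = 0.815, edgeR), with a 95% interval from -0.46 to 1.00.

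miR-15b-5p, made from Smc4 as is a further copy of miR-16, had 180, 258 and 73 counts with sham treatment and 843, 119 and 292 after Acu/LFES. It was the tested member whose mean was lower in Acu/LFES mice, with 259, 602 and 241 CPM with sham treatment and 505, 247 and 266 CPM after Acu/LFES. Sham mouse 2 and Acu/LFES mouse 4 stood at more than 500 CPM and the other 4 mice between 241 and 266 CPM, so the spread ran within the groups and not between them. The log2 fold change was -0.11 (standard error 0.45, adjusted p = 0.967, edgeR), with a 95% interval from -1.11 to 0.88, and it was 0.44 without sham mouse 2.

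miR-195a-5p was far rarer, with 17, 3 and 1 counts with sham treatment and 64, 27 and 20 after Acu/LFES. These are 24.5, 7.0 and 3.3 CPM with sham treatment and 38.3, 56.1 and 18.3 CPM after Acu/LFES. Sham mouse 1 lay above Acu/LFES mouse 6, and the other sham mice, at 3 counts or fewer, were at or under what counting can show. The log2 fold change was 1.59, the widest of the tested members, but its standard error was 0.97 (adjusted p = 0.681, edgeR) and its 95% interval went from -0.57 to 3.75. It depended on sham mouse 1, and without that mouse it was 2.82 with an unadjusted p of 0.0341 and an adjusted p of 0.249 in the edgeR fit. The other sham mice then held 4 counts between them.

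miR-497a-5p and miR-322-5p had 0 counts in each sham mouse and too few in the others to pass the filter. The counts of miR-322-5p in mice 4, 5 and 6 were 16, 2 and 8, or 9.58, 4.16 and 7.30 CPM. All 3 values lay above 0 but none lay above 9.91 CPM, the floor in sham mouse 3. That of mouse 5 was also under its own floor of 6.24 CPM. miR-497a-5p had 17, 4 and 0 counts in the same mice, or 10.2, 8.32 and 0 CPM. Their means in Acu/LFES mice, 7.01 ± 2.72 CPM for miR-322-5p and 6.16 ± 5.42 CPM for miR-497a-5p (SD, n = 3), were under the highest sham floor, so no fold of CPM is given and a difference was not detectable at this depth.

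**Figure D1:**
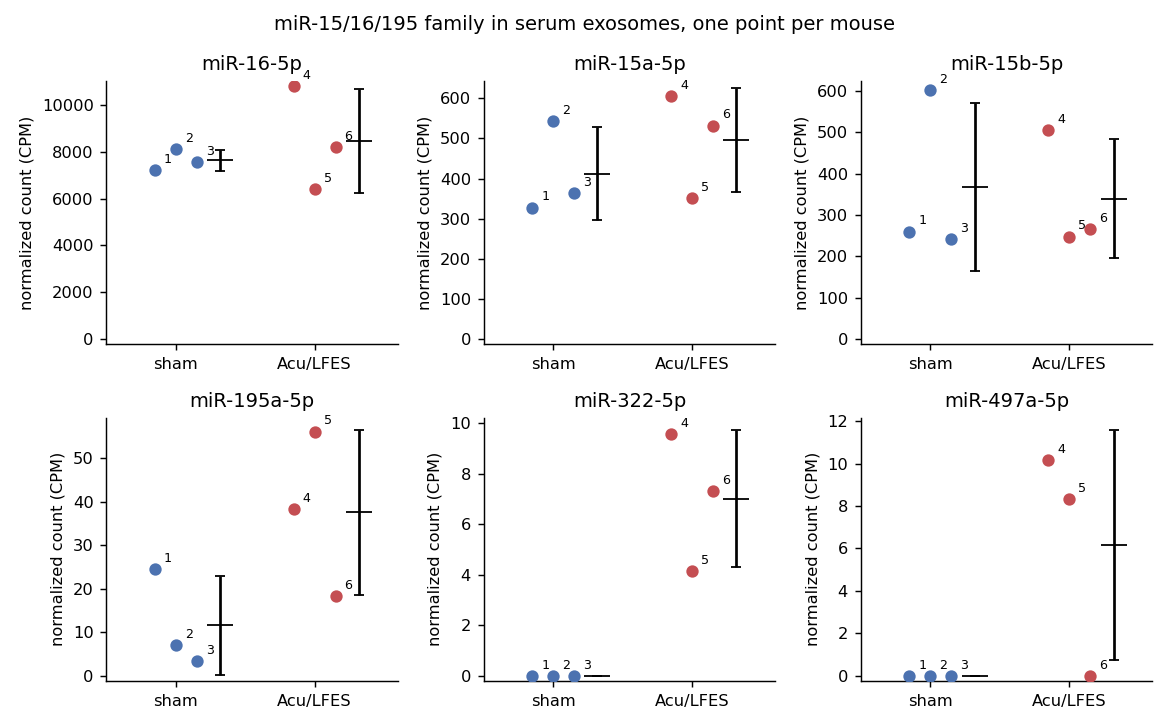
Normalized counts (CPM, linear axes that include 0) of the 6 members in sham (blue) and Acu/LFES (red) mice, a point per mouse with its number and a black mean with SD bars. The groups overlap for miR-16-5p, miR-15a-5p, miR-15b-5p, miR-195a-5p and miR-497a-5p, and miR-322-5p is at 0 with sham treatment and between 4.16 and 9.58 CPM after Acu/LFES. These miR-322-5p values lie under the floor of 9.91 CPM in sham mouse 3, so a difference was not detectable.

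The counts of the 6 members were also added, since close members can share reads. The sum was 7815, 9266 and 8175 CPM with sham treatment and 11960, 7065 and 9017 CPM after Acu/LFES. As for miR-16-5p, mouse 4 was highest and mouse 5 lowest. The log2 fold change of the sum was 0.19 (standard error 0.26, adjusted p = 0.836, edgeR with the sum in place of its members), with a 95% interval from -0.39 to 0.77. miR-16-5p made up between 87.6% and 92.6% of the family's counts in each sham mouse and between 90.2% and 90.9% in each Acu/LFES mouse. The family's makeup thus varied more among the sham mice, with the lowest share in sham mouse 2, where both miR-15 members were high.

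As a share of all deposited counts the family took 0.867% (95% Wilson interval 0.845 to 0.891), 0.603% (0.584 to 0.622) and 0.632% (0.607 to 0.657) in the sham mice. In the Acu/LFES mice it took 1.33% (1.31 to 1.35), 0.538% (0.521 to 0.557) and 1.91% (1.87 to 1.95), intervals that cover counting error only. The Acu/LFES mice thus held both the lowest share, in mouse 5, and the highest, in mouse 6. The means of 0.70 ± 0.15% and 1.3 ± 0.69% (SD, n = 3 each) did not differ beyond this spread (two-sided exact permutation test, p = 0.4, where 3 mice against 3 cannot go below 0.1). With the identical miR-486 rows counted once, an alternative added after the data were seen, the shares were 1.25%, 0.957% and 0.980% with sham treatment and 1.92%, 0.851% and 2.24% after Acu/LFES (two-sided exact permutation test, p = 0.4). With the rows of miR-486 removed from the totals, the shares were 2.27%, 2.32% and 2.19% with sham treatment and 3.48%, 2.03% and 2.7% after Acu/LFES (two-sided exact permutation test, p = 0.4).

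Ratios of counts within a library need no scaling, and 8 of them were compared, on the log2 scale with a pseudocount of 0.5 counts. Measured against miR-16-5p, miR-15a-5p was at -4.24 ± 0.30 in sham and -4.09 ± 0.13 in Acu/LFES mice, and miR-15b-5p at -4.50 ± 0.66 and -4.68 ± 0.26 (SD, n = 3 each). Both ratios overlapped between groups (two-sided exact permutation tests, p = 0.5 and p = 0.9). The ratio of miR-15a-5p was steadier over the mice than that of miR-15b-5p, which ran from -4.96 in sham mouse 3 to -3.75 in sham mouse 2. miR-15b-5p against miR-15a-5p was -0.26 ± 0.37 in sham and -0.59 ± 0.37 after Acu/LFES (two-sided exact permutation test, p = 0.5).

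miR-195a-5p against miR-16-5p was -9.56 ± 1.3 in sham and -7.90 ± 1.00 after Acu/LFES (mean ± SD, n = 3 each; two-sided exact permutation test, p = 0.2). This ratio, of the member nearest to miR-16-5p in sequence, rests on few counts of miR-195a-5p and was lowest in sham mouse 3 (-10.58) and highest in Acu/LFES mouse 5 (-6.81). For miR-322-5p the ratio was higher after Acu/LFES by 2.60 (two-sided exact permutation test, p = 0.1), but with 0 counts in every sham mouse the pseudocount set the sham value, and with a pseudocount of 1 count the difference was 1.73. For miR-497a-5p the ratio was higher by 1.55 (two-sided exact permutation test, p = 0.4), and by 0.95 with a pseudocount of 1 count. Here too the pseudocount set the value of every sham mouse, and also that of Acu/LFES mouse 6, each at 0 counts. Adjusted over the 8 ratios, p was between 0.667 and 0.9 in these exact permutation tests.

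**Figure D2:**
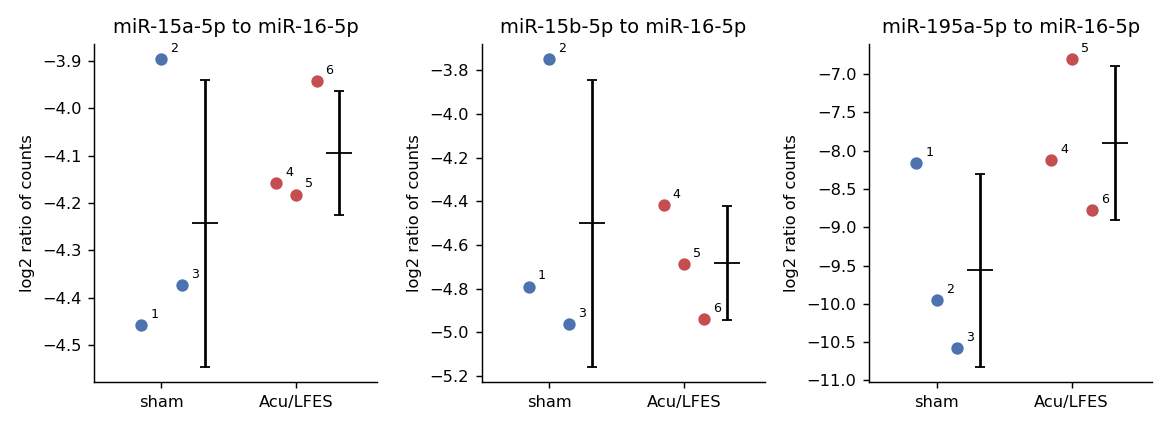
Log2 ratio of the counts of miR-15a-5p, miR-15b-5p and miR-195a-5p to those of miR-16-5p in the same library (pseudocount 0.5), a point per mouse with its number, sham in blue and Acu/LFES in red, and a black mean with SD bars. The vertical axes differ between panels and do not start at 0, and the miR-195a-5p panel spans from -10.58 to -6.81.

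miR-16-5p is often taken as a serum reference, as is miR-103, which the study's serum qPCR used and which is counted here as miR-103-3p, whose first bases contain the family's seed letters moved by 1 position. Printed with its own bases 2 to 8 in capitals to show that shift, it reads as follows.
miR-103-3p: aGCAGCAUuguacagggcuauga
Of the 152 miRNAs that reached 10 counts in each library, miR-16-5p had the 16th smallest standard deviation of log2 CPM over the 6 mice, 0.25, where the median was 0.52. Its highest mouse was 1.69 times its lowest. miR-15a-5p was 45th with 0.38, miR-103-3p 74th with 0.51 and miR-15b-5p 96th with 0.59. This order depended on the TMM factors. With total counts in their place the standard deviation was 0.73 for miR-16-5p (70th), 0.69 for miR-103-3p (59th), 0.81 for miR-15a-5p (86th) and 0.72 for miR-15b-5p (69th), beside a median of 0.77. The log2 ratio of miR-16-5p to miR-103-3p was 3.23 ± 0.62 in sham and 3.48 ± 0.16 after Acu/LFES (mean ± SD, n = 3 each; two-sided exact permutation test, p = 0.7), and it turned from higher to lower by -0.08 in Acu/LFES mice when sham mouse 2 was left out.

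The pattern of each member over the 6 mice was set beside the 149 non-members of the same set, as the root-mean-square difference of their mean-centred log2 CPM. Nearest to miR-16-5p were miR-30e-5p (0.13), let-7i-5p (0.14) and miR-140-5p (0.14), where the median over those miRNAs was 0.52. Nearest to miR-15a-5p were miR-140-5p (0.10), miR-30a-5p (0.14) and miR-221-3p (0.17), with a median of 0.58. Nearest to miR-15b-5p were miR-103-3p (0.14), miR-361-5p (0.31) and miR-421-3p (0.34), with a median of 0.69. miR-16-5p and miR-15a-5p differed by 0.20, miR-15a-5p and miR-15b-5p by 0.35, and miR-16-5p and miR-15b-5p by 0.42. miR-15b-5p was thus nearer to miR-103-3p than to either member of its own family, a description of these libraries, whose values share depth and TMM factors.

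Each hairpin also yields an arm that lacks the family seed, and the counts on both arms show which product of a locus was carried. Of the 8 names listed, 7 were rows of the table, 6 had a count and 4 passed the filter. All of these 4 had a higher mean in Acu/LFES mice, where 52.9% of all miRNAs tested had a fold change above 0. miR-15b-3p, miR-16-2-3p and miR-195a-3p passed the filter only with the counts of the Acu/LFES mice, so for them a higher mean was partly built in. 0 of these 4 had an adjusted p under 0.05 in edgeR, and 1, miR-15b-3p, was higher at an unadjusted p under 0.05, against 5.79% of all miRNAs tested. Their median log2 fold change was 1.23, beside 0.05 over all 259 miRNAs tested. With no filter, which takes in the rarer miRNAs, the median over all rows was 0.68, so rows with few counts leaned the same way in general. They reached from 0.48 in miR-16-2-3p over 0.99 in miR-322-3p and 1.47 in miR-195a-3p to 2.44 in miR-15b-3p, but single mice weighed on them. Without sham mouse 1, miR-16-2-3p was at -0.01 and miR-195a-3p at 4.91 (unadjusted p = 0.0113, adjusted p = 0.220, edgeR). Sham mice 2 and 3 then held 1 and 0 counts of miR-195a-3p, so its direction there was all but fixed by the filter. Without Acu/LFES mouse 6 miR-195a-3p was at 0.50.
The main arm differed between loci. Over all mice, the 3p arm held 0.128% of the counts of miR-15a (3 of them), 0.40% of those of the miR-16 hairpins together and 16.9% of those of miR-15b. It held 93.1% of the counts of miR-322 and 0 of the 21 counts of miR-497a. For miR-195a it held 56.6%, but 41.7% without Acu/LFES mouse 6, so the main arm of this locus depended on that mouse. For miR-322, therefore, 353 counts lay on the arm without the seed and 26 on miR-322-5p.
These are the 3p arms of miR-15b and miR-322, with bases 2 to 8 in capitals, which show that neither carries AGCAGCA there.
miR-15b-3p: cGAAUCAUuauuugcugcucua
miR-322-3p: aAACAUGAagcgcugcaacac

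miR-15b-3p had 1, 22 and 1 counts with sham treatment and 183, 48 and 104 after Acu/LFES. These are 1.44, 51.3 and 3.3 CPM with sham treatment and 110, 99.8 and 94.9 CPM after Acu/LFES. The Acu/LFES mice lay together and above every sham mouse, as in 8.88% of tested miRNAs, while the sham mice were apart, with sham mouse 2 far above the others. The log2 fold change was 2.44 (standard error 1.09, unadjusted p = 0.0492, adjusted p = 0.554, edgeR), with a 95% interval from 0.01 to 4.86. Without sham mouse 2 it was 5.49 (adjusted p = 0.0601, edgeR), and with any other mouse left out it was between 1.91 and 2.59 with unadjusted p between 0.0720 and 0.103 in the edgeR fit, so no longer under 0.05. The other arm of the neighbouring hairpin, miR-16-2-3p, had 4, 8 and 17 counts with sham treatment and 83, 17 and 26 in the Acu/LFES mice and overlapped between the groups.
The share of miR-15b counts on the 3p arm, a comparison chosen after its values were seen and therefore given without a test, needs no library scaling. It was 0.552% (95% Wilson interval 0.0976 to 3.06), 7.86% (5.25 to 11.6) and 1.35% (0.239 to 7.27) in sham mice 1, 2 and 3. It was 17.8% (15.6 to 20.3), 28.7% (22.4 to 36.0) and 26.3% (22.2 to 30.8) in Acu/LFES mice 4, 5 and 6. Every Acu/LFES mouse lay above every sham mouse, and the means were 24.3 ± 5.72% and 3.25 ± 4.01% (SD, n = 3 each). Among the 73 pairs of 5p and 3p rows with at least 10 counts over both arms in every library, and at least 10 on each arm over all mice, 6.85% showed the 3p share of all Acu/LFES mice above that of all sham mice and 8.22% below, so miR-15b was 1 of 5 such pairs.
The 3p share of miR-322 was 100% in the sham mice, with 27, 25 and 7 counts, and 91.4%, 91.3% and 92.8% after Acu/LFES. The sham values allow a 5p share of up to 11.1%, 12.0% and 42.9% (3 counts of the total), so a difference in arm use of miR-322 was not detectable at this depth. The 3p share of miR-195a ran from 0% of 1 count in sham mouse 3 to 62.2% of 45 in sham mouse 1, and from 25.0% of 36 in Acu/LFES mouse 5 to 82.1% of 112 in Acu/LFES mouse 6.

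**Figure D3:**
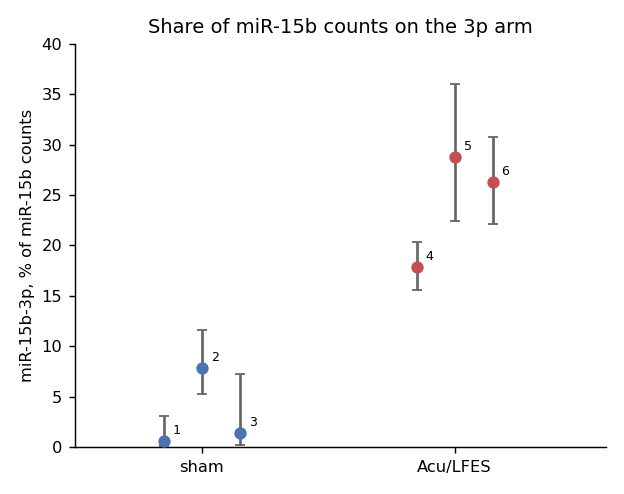
Share of miR-15b counts that lay on the 3p arm (percent, axis from 0), a point per mouse with its number and a bar for the 95% Wilson interval, sham in blue and Acu/LFES in red. The sham mice lie between 0.552% and 7.86% and the Acu/LFES mice between 17.8% and 28.7%.

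Mir322 lies in a cluster on chromosome X with the hairpins of miR-503, miR-351, miR-542 and miR-450. Of the 11 names of these partners, 9 had a count and 2 passed the filter, with 0 past the test in either direction. miR-351-5p, the most counted of them, had 159, 161 and 28 counts with sham treatment and 191, 135 and 84 after Acu/LFES, which gave -0.58 as log2 fold change (standard error 0.61, adjusted p = 0.799, edgeR). miR-503-5p, which shares its first 7 bases with miR-16-5p, had 25, 0 and 0 counts with sham treatment and 131, 20 and 22 after Acu/LFES, which gave 1.82 as log2 fold change (standard error 1.34, adjusted p = 0.786, edgeR). Like miR-195a-5p, it was seen in sham mouse 1 and hardly or not in the other sham mice. miR-503-5p passed the filter only with the counts of the Acu/LFES mice, so its higher mean there was partly built in. Without sham mouse 1 the remaining sham mice had 0 counts, so the direction could only be upward. The fitted value was then 8.23 (unadjusted p = 0.0040, adjusted p = 0.220, edgeR), a size that depends on the prior count. Of the rest, miR-450b-3p was counted 54 and 27 times in Acu/LFES mice 4 and 6 and 0 times elsewhere, miR-542-3p had at most 22 counts in a mouse, miR-503-3p at most 20 and miR-450a-5p at most 13. For comparison, miR-322-3p from the family's own hairpin had 27, 25 and 7 counts with sham treatment and 170, 21 and 103 after Acu/LFES.

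**Figure D4:**
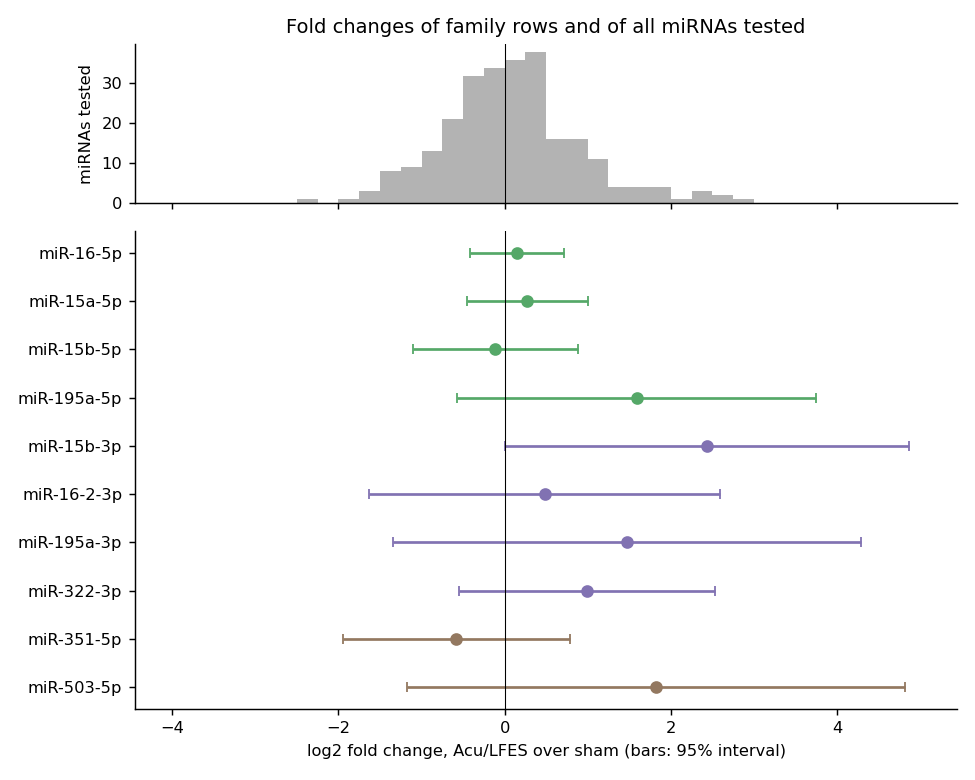
Upper panel, the number of miRNAs tested by log2 fold change of Acu/LFES over sham (bins of 0.25). Lower panel, the log2 fold change of the tested members (green), the other arms of their hairpins (purple) and the tested partners of miR-322 (brown) with 95% intervals from edgeR. Each interval spans 0 except that of miR-15b-3p, which starts at 0.01.

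Levels of miRNAs known from blood cells and other tissues were set beside the family, since miR-16 is abundant in red cells. Of the 5 red cell miRNAs, 4 were tested and 0 were called. miR-451a had a log2 fold change of 0.34, miR-144-5p of 0.54 and the identical rows miR-486a-5p and miR-486b-5p of -0.66, each with an adjusted p of 0.799 in edgeR. The red cell miRNAs outside miR-486 summed to between 797 and 1649 CPM in sham mice and between 1131 and 2360 CPM in Acu/LFES mice. Among them miR-144-3p had 0 counts in each sham mouse and 3, 0 and 1 in Acu/LFES mice 4, 5 and 6, at or under the floor. The log2 ratio of miR-16-5p to miR-451a was 2.92 ± 0.40 in sham and 2.72 ± 0.35 after Acu/LFES (mean ± SD, n = 3 each; two-sided exact permutation test, p = 0.5). This ratio overlapped between the groups, while miR-486a-5p ran from 68843 CPM in Acu/LFES mouse 6 to 568390 CPM in sham mouse 2.
Of the white cell and platelet miRNAs all 5 were tested and 0 called, with log2 fold changes of 0.07 for miR-223-3p, -0.33 for miR-142a-5p, -0.40 for miR-150-5p, -0.51 for miR-142a-3p and -0.80 for miR-155-5p. They summed to between 6411 and 7829 CPM in sham and between 5063 and 7053 CPM in Acu/LFES mice. Of the muscle miRNAs 3 of 6 were tested and 0 called, with -0.01 for miR-1a-3p, -0.04 for miR-133a-3p and -0.77 for miR-206-3p. miR-499-5p was seen in Acu/LFES mice 4 and 6 with 51 and 20 counts, and miR-208b-3p had 0 in every mouse. The muscle list summed to between 10094 and 11262 CPM in sham and between 7483 and 12453 CPM in Acu/LFES mice. Of the liver miRNAs, miR-122-5p had a log2 fold change of -0.67, which was -1.63 without Acu/LFES mouse 6 (unadjusted p = 0.0306, adjusted p = 0.659, edgeR) and -0.02 without sham mouse 3. It ran from 1693 CPM in Acu/LFES mouse 4 to 20828 CPM in sham mouse 3. The part of these tissues in the levels of the family was not tested.

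The size of the fold changes, and for miR-15b-5p the sign, depended on how libraries were set level. With total counts in place of TMM factors the median log2 fold change over the tested miRNAs moved from 0.05 to 0.71, and that of miR-16-5p was 0.84, of miR-15a-5p 1.05, of miR-15b-5p 0.60 and of miR-195a-5p 1.81, with 0 members called. Relative to the median under that scaling they stood at 0.13, 0.34, -0.11 and 1.10, close to 0.10, 0.22, -0.16 and 1.54 under TMM factors for all but miR-195a-5p. miR-15b-5p thus lay below the median miRNA and the other tested members above it under both scalings. These distances were under the standard error of the edgeR fit for miR-16-5p, miR-15a-5p and miR-15b-5p under both scalings, and for miR-195a-5p under total counts. The summed family stayed above 0 under each scaling, and turned to -0.05 without Acu/LFES mouse 4.

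**Figure D5:**
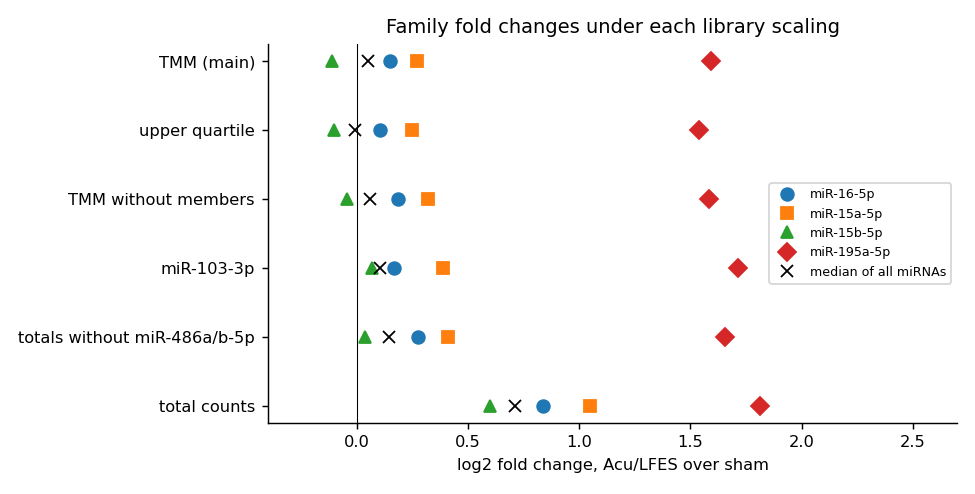
Log2 fold change of Acu/LFES over sham for the 4 tested members and for the median of all miRNAs tested (crosses) under 6 library scalings, one per line. Under total counts all symbols lie to the right of those under TMM factors, the median at 0.71 and miR-16-5p at 0.84. miR-195a-5p moves least, from 1.59 to 1.81. miR-15b-5p lies above 0 under total counts (0.60), scaling to miR-103-3p (0.070) and totals without miR-486 (0.039).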

How the data were processed

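Small RNA of serum exosomes was sequenced from 3 sham and 3 Acu/LFES mice, grouped by the treatment in the sample labels. The authors deposited raw counts per mature miRNA, 1 column per mouse, without normalization. The submitters' processing notes name bcl2fastq 1, cutadapt 1.6 and DESeq2 1.26.0. The aligner, the counter, the miRNA annotation and the mismatches allowed are not given in the sources used here, and they decide how reads of near-identical miRNAs were shared.

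Library factors (TMM) and quasi-likelihood tests came from edgeR (version 4.0.16, R version 4.3.3), over the 259 miRNAs, of 954 with a count, that its default filter kept, with Benjamini-Hochberg adjustment and a threshold of 0.05. The 95% intervals use the standard error from the F statistic. Ratios and shares were compared by exact permutation tests (SciPy 1.17.1). Alternatives were DESeq2 1.42.0, 5 other scalings, 2 other filters and each mouse left out. Named miRNAs are the 6 members, the other arms, rows with the same seed, partners of miR-322, marker miRNAs, miR-103-3p and the 3 nearest patterns per member. Members and lists were chosen with earlier results of these data known. Sequences are from RefSeq (GRCm38.p6) and positions from GENCODE M21. Figures used matplotlib 3.10.9.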

Additional observations from a re-analysis of the deposited data

How the results depend on the processing

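No paired analysis was possible because the mice carry the numbers 1 to 6 and no number is shared between the groups. With 3 mice a group and at most 17 counts in any sham mouse for the rare members miR-195a-5p, miR-497a-5p and miR-322-5p, both depth and number of mice limit what could be seen. No member was called at an adjusted p under 0.05 by edgeR or DESeq2 under the alternatives run, while DESeq2 called 8 miRNAs among all rows where edgeR called 0. The number of miRNAs at an unadjusted p under 0.05 was 23 with edgeR, 29 with DESeq2, 7 with scaling to miR-103-3p, 53 with no filter and 48 without sham mouse 1, where 1 member, miR-195a-5p, was among them. Adjusted p over the alternatives ran from 0.544 to 1.000 for miR-16-5p, from 0.484 to 0.999 for miR-15a-5p, from 0.697 to 1.000 for miR-15b-5p, from 0.249 to 0.995 for miR-195a-5p and from 0.549 to 1.000 for the sum. miR-195a-5p could not be fitted with at least 10 counts required in every library.

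Log2 fold changes that turned from negative to positive with total counts were 0.60 for miR-15b-5p, 0.22 for miR-142a-3p, 0.22 for miR-142a-5p, 0.083 for miR-150-5p, 0.024 for miR-155-5p, 0.36 for miR-122-5p, 0.71 for miR-1a-3p, 0.72 for miR-133a-3p, 0.15 for miR-206-3p and 0.50 for miR-103-3p, as the median of all miRNAs moved to 0.71. The difference of miR-322-5p moved from 7.01 to 9.76 CPM. Scaling to miR-103-3p gave 0.070 for miR-15b-5p and 0.040 for miR-133a-3p (median of all 0.11), totals without miR-486 gave 0.039 for miR-15b-5p, 0.11 for miR-1a-3p and 0.078 for miR-133a-3p (median 0.14), TMM factors without the members gave 0.033 for miR-1a-3p, and no filter gave 0.063 for miR-1a-3p and 0.012 for miR-133a-3p (median 0.68, with more rows tested). The cause of these sign changes was not tested.

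Leaving out each mouse changed the sign of these log2 fold changes, given as lowest and highest. They ran from -0.061 to 0.36 for miR-16-5p and from -0.052 to 0.37 for the sum, both negative without Acu/LFES mouse 4, and from -0.48 to 0.44 for miR-15b-5p. They ran from -0.010 to 1.66 for miR-16-2-3p, from -0.0087 to 0.59 for miR-451a, from -0.15 to 0.32 for miR-223-3p, from -1.05 to 1.20 for miR-142a-3p and from -0.66 to 0.16 for miR-150-5p. They ran from -0.38 to 0.34 for miR-1a-3p, from -0.25 to 0.089 for miR-133a-3p, from -1.19 to 0.049 for miR-206-3p and from -0.46 to 0.27 for miR-103-3p. With no change of sign they ran from 0.12 to 0.53 for miR-15a-5p, from 1.91 to 5.49 for miR-15b-3p, from 0.50 to 4.91 for miR-195a-3p, from 1.20 to 8.23 for miR-503-5p, from -1.23 to -0.07 for miR-351-5p, from -1.63 to -0.02 for miR-122-5p, from -1.28 to -0.13 for miR-486a-5p and from 0.01 to 1.32 for miR-144-5p. The log2 ratio differences ran from -0.41 to 0.19 for miR-15b-5p to miR-16-5p, from -0.081 to 0.54 for miR-16-5p to miR-103-3p and from -0.40 to 0.031 for miR-16-5p to miR-451a. The difference in the miR-15b 3p share, added after the data were seen, ran from 18.8 to 24.2 percentage points.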
